A study of Homo sapiens with 12 samples.

Results

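SUM159 was compared with MDAMB231, 2 established human breast cancer cell lines, over 8 of the 12 libraries of the series. All 4 SUM159 libraries and all 4 MDAMB231 libraries entered, paired by treatment, and none was chosen by its values. Both lines grew in the same medium, DMEM/F12 with 5% fetal bovine serum, insulin and hydrocortisone. Each line gave 1 library after 72 h with the solvent DMSO, 1 with JQ1, 1 with 10 µM GSK2801 and 1 with JQ1 and GSK2801 together, called the combination here. JQ1 was used at 300 nM in SUM159 and at 100 nM in MDAMB231, so line and dose cannot be told apart wherever JQ1 was given. The remaining 4 libraries are HCC1806, a line grown in RPMI medium, and serve only as values to set beside the others. Polyadenylated RNA was sequenced, and each value is a number of normalized reads per gene, scaled by the authors so that the upper quartile is the same in every library. The labels name no separate cultures, and each line has 1 library per treatment, so p-values measure how steady a line difference was over the 4 treatments and not the spread between cultures.

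Both lines are models of triple-negative breast cancer, the class of tumour without estrogen receptor, progesterone receptor or amplified ERBB2, and both are usually placed among its mesenchymal-like members. SUM159 is known to carry activating mutations of HRAS and PIK3CA. MDAMB231, grown from a pleural effusion, is known to carry a mutation of BRAF and a truncated NF2. JQ1 blocks the acetyl-lysine pocket of the BET proteins, chromatin readers that help RNA polymerase II leave promoters, and GSK2801 blocks the bromodomains of BAZ2A and BAZ2B. A cell line's identity, here, is the set of genes that differ between lines whatever drug is present: lineage transcription factors and the keratins, collagens, adhesion molecules and receptors that they control.

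Throughout, a difference is SUM159 minus MDAMB231 on the log2(value + 1) scale, with its standard error from limma, and the 4 values of a line are given in the order DMSO, JQ1, GSK2801, combination. Where a gene is near 0 in one line, the size of the difference depends on the 1 that is added, and the values themselves say more. Where a gene is listed at 0 in all 4 libraries of a line, no difference is given. Of 214 genes of the rules and lists named here that passed for the line difference, the values of the lines overlapped for 15: BRD2, CYFIP1, DCN, FGFR1, HLA-E, ITGA10, KRT80, LGALS12, MAGEA2, MET, PIK3CA, PKP3, PTPRC, TAP2 and UBE2C. For the other named genes that passed, every value of one line lay above every value of the other. The call of 20 of the 214 was lost when some single treatment pair was left out: BRD2, CD14, CD36, EREG, HLA-C, HLA-DMA, HLA-E, HRAS, IL1RL1, KRT5, KRT80, LGALS12, MAGEA2, MET, MUC1, PIK3CA, PTPRC, RXFP1, TAP2 and UBE2C.

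Hormone receptor genes were near 0 in both lines. ESR1, the estrogen receptor, read 12.9, 0, 8.75 and 0 in SUM159 and 0.754, 2.74, 0 and 0 in MDAMB231. PGR, the progesterone receptor, was listed at 0 in all SUM159 libraries and read 12.1, 5.48, 8.12 and 2.67 in MDAMB231. ERBB2 read 3084 to 4142 in SUM159 and 1749 to 2335 in MDAMB231, 1.79-fold apart. VIM, the intermediate filament of mesenchymal cells, was high in both lines, with 90380.3 to 142226 in SUM159 and 91479.9 to 140589 in MDAMB231 and a log2 difference of -0.03 ± 0.14 (SE, adjusted p = 0.853, limma). CDH1, the epithelial cadherin, was low in both, at 1.06 to 33.2 and 6.39 to 30.0, against 14154 to 27120.5 in HCC1806.

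The 8 libraries held an estimated 24200000 to 46800000 reads, and 15766 to 16797 genes per library had a value above 0. Genes that one line expressed strongly left small traces in the other. For 32 genes abundant in SUM159 and near 0 in MDAMB231, the summed value in MDAMB231 was 0.0443%, 0.0225%, 0.0727% and 0.0541% of that in SUM159 with DMSO, JQ1, GSK2801 and the combination. For 15 genes the other way round, the summed value in SUM159 was 0.109%, 0.0375%, 0.0736% and 0.0932% of that in MDAMB231. The genes were chosen for being high in every library of one line and near 0 in the other. Small values beside very large ones, such as the 24.5 of IRX2 given further on, are therefore part of these sums. Their source was not tested.

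Genes whose 8 values averaged 10 or more were tested, 13692 in all, and 8231 differed between the lines, or 60.1% of those tested (limma on log2(value + 1) with treatment as a block, adjusted p below 0.05). SUM159 was higher for 4336 of them (31.7%) and lower for 3895 (28.4%). The counts of gene lists given further on are to be read beside these shares. A difference of at least 4-fold was met by 2326 genes (17.0%), 1139 higher in SUM159 (8.32%) and 1187 lower (8.67%). The 4 SUM159 values lay wholly above or below the 4 MDAMB231 values for 6608 genes (48.3%), and for 2218 of the 2326 genes past 4-fold. Without the libraries that received JQ1, 10608 genes passed.

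More genes lay far apart between the lines than between drug and solvent within a line. With DMSO, 2492 of the 13692 genes lay at least 4-fold apart between the lines, and with JQ1, GSK2801 and the combination 2316, 2523 and 2374 did. Against its own DMSO library, SUM159 had 669 genes at least 4-fold apart with JQ1, 79 with GSK2801 and 903 with the combination. MDAMB231 had 448, 43 and 957. These counts rest on 1 library against 1 and carry no test. Per gene the median size of the line difference was 0.68 on the log2 scale with DMSO, 0.60 with JQ1, 0.70 with GSK2801 and 0.67 with the combination.

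COL3A1, CCAT1 and L1CAM served as marks of the lines. COL3A1, the main chain of type III collagen, read 3889.5, 43.5, 4596 and 34 in SUM159 and 1.51, 0, 2.44 and 0 in MDAMB231. It was high in the 2 SUM159 libraries without JQ1 and far lower in the 2 with it, but every SUM159 value stayed above every MDAMB231 value. The difference was 7.90 ± 1.12 (SE, adjusted p = 0.00213). COL3A1 lies on chromosome 2, 188974320 to 189012746 (hg38, GENCODE v29, as for every gene position here). CCAT1, a long noncoding RNA transcribed upstream of MYC, read 7855, 204, 6899 and 246 in SUM159 and 9.04, 1.83, 16.2 and 0 in MDAMB231. Its groups did not overlap either, and the difference was 8.10 ± 0.56 (SE, adjusted p = 0.000168). L1CAM, a neural adhesion molecule that also marks invasive tumours, ran the other way with 1.17, 34, 7 and 69.9 in SUM159 and 794, 3049, 733 and 3845 in MDAMB231. L1CAM was higher with JQ1 than without it in both lines, and every MDAMB231 value lay far above every SUM159 value. The difference was -6.81 ± 0.46 (SE, adjusted p = 0.000158), and the gene lies on chromosome X, 153861514 to 153886174. MYC, the neighbour of CCAT1, did not pass and read 7079 to 8959 in SUM159 and 6289 to 8432 in MDAMB231 (difference 0.10 ± 0.11 (SE), adjusted p = 0.47).

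Among the genes past the threshold with the same sign in all 4 pairs, the largest difference was that of IRX2, a homeobox transcription factor of the Iroquois family. IRX2 read 70375, 86148, 72833 and 84176 in SUM159 and 0, 2.74, 24.5 and 12.7 in MDAMB231, and 1714, 2885, 1830.3 and 2501 in HCC1806. Its difference was 13.67 ± 0.76 (SE, adjusted p = 9.17e-05). C5orf38, the neighbour transcribed away from IRX2 on the other strand, read 19175, 16236, 18565 and 14419.8 in SUM159 and 0, 0, 4.06 and 2.67 in MDAMB231, with a difference of 13.00 ± 0.49 (SE, adjusted p = 3.36e-05). IRX2 covers chromosome 5, 2745845 to 2751662 on the minus strand, and C5orf38 covers 2752131 to 2755397 on the plus strand of the same chromosome. The stretch before IRX2 is shown because it lies between the starts of the pair. It is the 250 bases before the RefSeq start of IRX2 (GRCh38.p14, chr5:2751678-2751927, minus strand), with every CG dinucleotide in capitals.
IRX2: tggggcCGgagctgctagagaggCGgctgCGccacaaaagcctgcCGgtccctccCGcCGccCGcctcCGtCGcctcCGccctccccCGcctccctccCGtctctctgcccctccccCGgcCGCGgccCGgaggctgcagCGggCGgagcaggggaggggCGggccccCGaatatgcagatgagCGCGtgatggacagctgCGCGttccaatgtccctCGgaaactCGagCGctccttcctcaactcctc
The stretch holds 27 CG, a dinucleotide that reads the same on both strands. The median over the 11128 of 13676 tested genes with such a stretch was 21, and 99.0% of stretches held at least 1. No methylation was measured here.

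ANPEP, the aminopeptidase CD13, read 29408, 37268, 33702 and 27435 in SUM159 and 0, 0.913, 15.4 and 4.67 in MDAMB231 (difference 13.08 ± 0.66 (SE, adjusted p = 6.97e-05)). MME, the neprilysin CD10 found on myoepithelial cells, read 5678 to 7753 in SUM159 and at most 1.62 in MDAMB231, and it varied little with treatment. MMP2, a gelatinase that opens basement membranes, read 16422, 12038, 20375 and 11962 in SUM159 and 0, 0.913, 2.44 and 2.67 in MDAMB231, with a difference of 12.71 ± 0.38 (SE, adjusted p = 2.36e-05). Matrix protein SPARC, a collagen-binding glycoprotein, read 8327 to 11397 against 1.83 to 3.77. AKR1C2, an aldo-keto reductase that inactivates steroid hormones, read 7143, 7537, 17052 and 12006 in SUM159 and 0.754, 1.42, 2.24 and 4.21 in MDAMB231. The 2 SUM159 libraries with GSK2801 had the higher values of AKR1C2, and its near-identical copies can share reads.

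The rest of the 15 largest were single genes of various functions. NPTX2, a neuronal pentraxin, read 6584 to 14654 in SUM159 and 0 to 2.67 in MDAMB231. CADM3, a neural adhesion molecule, read 4974, 2330.1, 6430.2 and 1972 in SUM159 and was listed at 0 in all 4 MDAMB231 libraries (adjusted p = 2.36e-05). CDH6, a cadherin of kidney and neural crest, read 6567, 964, 7197 and 2319 in SUM159 and 0, 0, 0.812 and 0.667 in MDAMB231, lower in both SUM159 libraries with JQ1. ROS1, an orphan receptor tyrosine kinase, read 8323, 4357, 9886 and 1639 in SUM159 and 0.754, 0, 4.06 and 2.67 in MDAMB231. FEZ1, an adaptor of axonal transport, read 2123 to 3462 against 0 to 1.33. MYBPC1, a myosin-binding protein of slow muscle, read 3897 to 6094 against 0 to 1.33. ZNF469, a zinc finger gene linked to collagen and the cornea, read 1509 to 2967 against 0 to 0.812. MAGEA2B, a cancer-testis antigen with near-identical copies, closed the 15 with 1874 to 2355 against 0 to 3.9 and a difference of 10.49 ± 0.46 (SE, adjusted p = 4.9e-05).

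In the other direction the largest difference was that of PXDN. PXDN, a peroxidase that crosslinks type IV collagen, read 5.86, 0, 0 and 3.78 in SUM159 and 7732, 11959, 8164 and 11911 in MDAMB231 (difference -11.99 ± 0.59 (SE, adjusted p = 6.51e-05)). G0S2, an inhibitor of fat breakdown, and PYGL, the liver glycogen phosphorylase, came next. G0S2 was listed at 0 in all 4 SUM159 libraries and read 2843, 2669.6, 3020.2 and 1212 in MDAMB231. PYGL read 10.5, 0, 4.37 and 1.89 in SUM159 and 7269, 7446, 7860.1 and 10109 in MDAMB231. FLNC, the muscle filamin, read 9.38, 21.2, 2.62 and 62.4 in SUM159 and 18126, 39554, 18064 and 50787 in MDAMB231, and TES, a protein of focal adhesions, 0 to 2.62 against 2056 to 3777. ANKRD1, a muscle ankyrin protein and a well-known target of YAP and TEAD, read 24.6, 15.9, 21 and 35.9 in SUM159 and 27736, 30201, 19515 and 22499.5 in MDAMB231 (difference -9.98 ± 0.25 (SE, adjusted p = 2.06e-05)).

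Luminal epithelial genes KRT19 and MLPH belonged to the same group. KRT19, the keratin of simple epithelia, read 18.8, 0, 4.37 and 5.67 in SUM159 and 3868, 13965, 2986 and 12136 in MDAMB231, and 14984 to 36032 in HCC1806. MLPH, a carrier of secretory vesicles and a luminal breast marker, read 0 to 1.17 in SUM159 and 1635 to 2141 in MDAMB231. CDH4, the retinal cadherin, read 2.34, 2.12, 0.875 and 2.83 in SUM159 and 5985, 4218, 6199 and 4908 in MDAMB231 (difference -10.80 ± 0.27 (SE, adjusted p = 2.06e-05)). ZNF347, one of the zinc finger genes of chromosome 19 described further on, read 0 to 2.83 against 989.7 to 2264. The last were ARMCX2 (0 to 1.89 against 1106 to 3540.1), the amino acid and nucleobase carrier SLC43A3 (0 to 14.9 against 1469 to 10714), the transcription elongation factor MLLT3 (0 to 1.17 against 766 to 1546) and the splicing factor CELF2 (0 to 1.75 against 1016 to 1668). PDE10A, a cyclic nucleotide phosphodiesterase, was listed at 0 in all SUM159 libraries and read 680.5 to 1321 in MDAMB231.

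**Figure D1:**
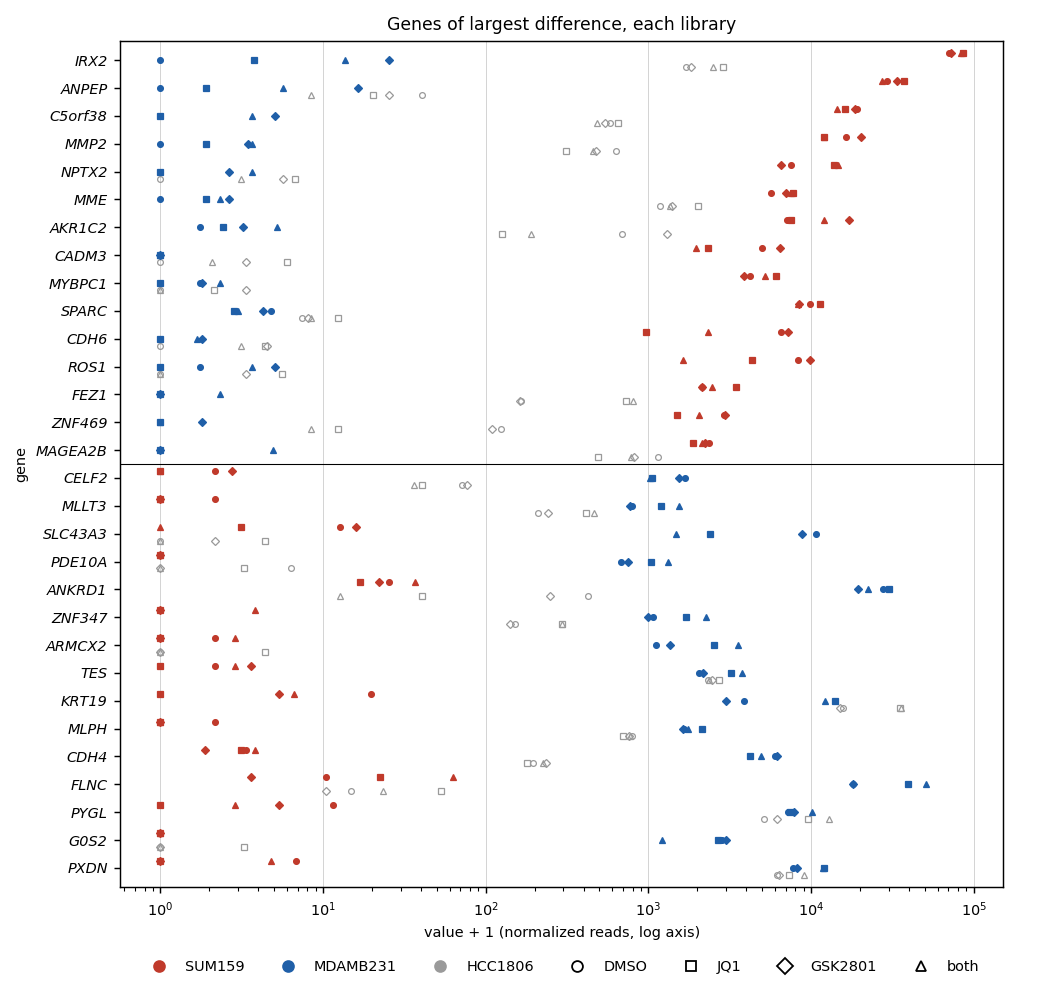
Normalized reads plus 1, on a log axis, of the 15 genes with the largest difference in each direction, with SUM159 in red, MDAMB231 in blue and HCC1806 as open grey symbols. Symbol shape marks the treatment, and in each gene the 4 SUM159 and 4 MDAMB231 values form separate groups.

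HCC1806 did not side with one line. Of the 15 genes highest in SUM159, HCC1806 lay nearer SUM159 for 7 and nearer MDAMB231 for 8 on the log2 scale. Of the 15 lowest in SUM159 it lay nearer SUM159 for 6 and nearer MDAMB231 for 9. Over the 1139 genes at least 4-fold higher in SUM159, it was nearer SUM159 for 544, and over the 1187 at least 4-fold lower for 523.

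HOX genes separated the lines by cluster. These homeobox factors sit in the 4 clusters A to D, and cells keep the combination that fits their position in the body. Of 39 HOX genes in the files 21 were tested, 13 higher in SUM159 and 5 lower, all 18 past 4-fold, against 17.0% of all tested genes, and the median difference was 4.91 beside 0.05 over all tested genes. SUM159 expressed genes of the A and C clusters. HOXA10 read 379.9, 154, 354 and 146 in SUM159, and HOXA5 34, 31.9, 55.1 and 51, and both were listed at 0 in all MDAMB231 libraries. HOXC10 read 1384, 898, 1348 and 780.5 in SUM159 and 8.51, 0.913, 8.93 and 0 in MDAMB231 (difference 8.19 ± 0.49 (SE, adjusted p = 0.000118)), and HOXC13 400.0, 565, 457 and 673 in SUM159 and 3.01, 0, 1.62 and 0.667 in MDAMB231. MDAMB231 expressed genes of the B and D clusters. HOXB9 read 1.17, 0, 0.875 and 0 in SUM159 and 902, 186, 815 and 161 in MDAMB231 (difference -8.09 ± 0.36 (SE, adjusted p = 4.98e-05)). HOXD1, HOXD3 and HOXD4 were listed at 0 in every SUM159 library and read 102 to 192, 35.4 to 96.2 and 46 to 144 in MDAMB231. The D cluster itself was split, since HOXD8 read 29.3 to 49.9 in SUM159 and was listed at 0 in MDAMB231. HOXA13, HOXB7 and HOXC5 did not pass.

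Noncoding RNAs of the same clusters went with their neighbours. HOTAIR, transcribed within HOXC, read 62.1, 46.7, 62.1 and 28.3 in SUM159, and HOTAIRM1, of the HOXA cluster, 256, 118, 207 and 104. In MDAMB231 HOTAIR was listed at 0 and HOTAIRM1 read 0 to 1.2. Both overlap or adjoin coding genes, and whether the counting used strand is not settled by the labels, so their reads cannot be told apart from those of an overlapping partner.

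**Figure D2:**
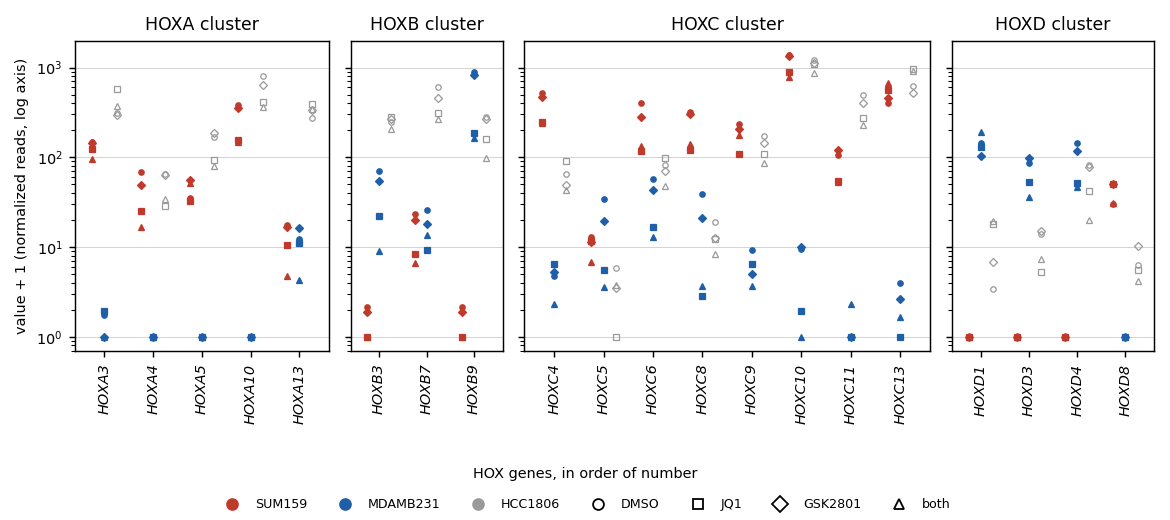
Normalized reads plus 1, on a log axis, of 20 tested HOX genes by cluster and in order of number, for SUM159 (red), MDAMB231 (blue) and HCC1806 (open grey), with symbol shape for treatment. SUM159 is above MDAMB231 in HOXA3 to HOXA10 and in most of HOXC, and below it in HOXB3, HOXB9 and HOXD1 to HOXD4.

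Other developmental transcription factors were tested in 60 cases, of which 30 were higher in SUM159 and 19 lower, with 19 and 11 past 4-fold. The shares over all tested genes were 31.7% higher, 28.4% lower and 17.0% past 4-fold. T-box factors were found on both sides. TBX18 read 3641, 1208, 2764 and 725 in SUM159 and 0, 0, 0.812 and 0.667 in MDAMB231, TBX3, a mammary placode factor, 1351 to 1901 against 0 to 2.63, and TBX2 517 to 837 with all MDAMB231 libraries listed at 0, while TBX1 read 0 to 0.875 against 44 to 107. Forkhead factors FOXC2, FOXD1 and FOXF1 were higher in SUM159, FOXC2 with 715 to 1492 against 0 to 3.25. EN1, the engrailed factor, read 496, 324, 711 and 460.2 in SUM159 and was listed at 0 in MDAMB231. TP63, the master factor of basal epithelium, read 1831, 388, 1011 and 162 in SUM159 and 3.77, 1.83, 3.25 and 6 in MDAMB231 (difference 7.03 ± 0.68 (SE, adjusted p = 0.000516)), and was lower in SUM159 with JQ1. On the MDAMB231 side stood SIX2 (119 to 157, listed at 0 in SUM159), FOXA2, a factor of gut and liver (49.9 to 319 against 2182 to 3149.9), SOX9 (48.1 to 195 against 1366 to 2142) and the orphan nuclear receptor NR2F2 (860.2 to 1053 against 8557 to 17793).

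Collagen genes were mostly higher in SUM159. Of 22 tested, 15 were higher and 5 lower, 12 and 4 past 4-fold, and the median difference was 2.22. Beside these counts stand 31.7% higher, 28.4% lower and 17.0% past 4-fold over all tested genes. COL1A1, the main chain of type I collagen, read 46871, 19899, 37932 and 10269 in SUM159 and 127, 75.8, 113 and 56.7 in MDAMB231 (difference 8.10 ± 0.19 (SE, adjusted p = 2.06e-05)). COL1A2, the other chain of the same fibril, was near 0 in both lines with 8.2, 0, 2.62 and 0 in SUM159 and 0, 0.913, 0 and 0 in MDAMB231, too low to be tested. Fibril-forming and associated chains COL5A2, COL5A1, COL6A3 and COL16A1 were on the same side, COL6A3 with 44008, 18199.7, 44574 and 9384 in SUM159 and 242, 367, 313 and 562 in MDAMB231 and COL5A2 with 7889, 6825, 9182 and 6562 in SUM159 and 36.9, 12.8, 45.5 and 29.3 in MDAMB231. Basement membrane collagen type IV was divided by gene pair. COL4A5 and COL4A6, which share a promoter region on the X chromosome, were higher in SUM159 by 4.14 ± 0.42 and 7.59 ± 0.19 (SE). COL4A1 and COL4A2, the widely used pair on chromosome 13, were lower, with differences of -2.61 ± 0.22 and -3.30 ± 0.20. COL13A1, a transmembrane collagen, was lower too (54.2 to 154 against 1198 to 2326). COL12A1 and COL17A1 did not pass, and COL12A1 was higher in SUM159 once the JQ1 libraries were left out.

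Of 30 other matrix proteins and crosslinking enzymes 10 were higher in SUM159 and 9 lower, and of 24 proteases and inhibitors 6 and 11, beside 31.7% and 28.4% of all tested genes. The counts of the matrix proteins are near those shares. FN1, the fibronectin gene, was 4.82-fold higher in SUM159 (106987 to 152706 against 18755 to 37409, adjusted p = 0.000135). SPOCK1, THBS2 and FBLN1, matrix glycoproteins, were on the SUM159 side, FBLN1 with 16974, 11557, 16788 and 6089 in SUM159 and 168, 78.5, 189 and 88 in MDAMB231. LOXL4, a collagen crosslinker, read 0, 2.12, 1.75 and 0 in SUM159 and 995, 951, 665 and 923 in MDAMB231. CYR61 and CTGF, matricellular proteins and classical targets of YAP and TEAD, were lower in SUM159, CYR61 13.1-fold (3368 to 5228 against 52343 to 59487) and CTGF with 1680.1, 2837, 1878 and 3085 in SUM159 and 11558, 55417, 10812 and 78322 in MDAMB231. The difference of CTGF was larger with JQ1, where its MDAMB231 values were highest (line-by-JQ1 term -1.82 ± 0.16 (SE), adjusted p = 0.00526).

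The lines used different proteases. SUM159 had MMP2 and ADAM12, a disintegrin protease that read 5747 to 12644 against 4 to 17. MDAMB231 had MMP1, interstitial collagenase, with 7.03, 11.7, 7.87 and 19.8 in SUM159 and 763, 1379.5, 1048 and 2347 in MDAMB231 (difference -6.76 ± 0.16 (SE, adjusted p = 2.06e-05)), and MMP14, the membrane-bound activator of MMP2, with 1157, 474, 1080.4 and 369 in SUM159 and 6674, 8222, 6119 and 7617 in MDAMB231. The inhibitor TIMP1 was higher in SUM159 (12013 to 41368 against 1797 to 2429), while TIMP4 was near 0 there (0 to 0.945 against 38.4 to 136). PLAU, the urokinase, was 3.18-fold lower in SUM159.

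Integrins, the receptors for this matrix, were tested for 17 genes, 9 higher in SUM159 and 5 lower. Over all tested genes 31.7% were higher and 28.4% lower. Collagen-binding ITGA11 and ITGA10 and laminin-binding ITGA7 were among the higher, ITGA11 with 222 to 529 against 0 to 3.33 and ITGA7 with 721 to 1189.6 against 10.0 to 27.4. ITGB4, the hemidesmosome chain, read 10411, 7168, 12912 and 3553 in SUM159 and 539, 1438, 382 and 822 in MDAMB231. ITGB2, the chain of leukocyte integrins, was lower (3.78 to 59.2 against 153 to 454). The line-by-JQ1 term is the change of the difference with JQ1 that is taken up further on. It passed below 0 for 12 of the 17 and above 0 for 1, beside 19.6% and 12.7% of all tested genes. This was not particular to integrins. The term was below 0 for 11 of 22 collagens, 14 of 30 other matrix proteins and 19 of 41 interferon response genes. It was above 0 for 0, 4 and 4 of them.

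Mesenchymal genes did not rank the lines as a block. Of 23 tested, 15 were higher in SUM159 and 6 lower, beside 31.7% and 28.4% of all tested genes. The median was 2.27, while VIM and ZEB1, 2 of the defining genes, lay close together. VIM did not pass, and ZEB1, a repressor of epithelial genes, was 1.5-fold lower in SUM159 (1540.3 to 2270.0 against 2537 to 3085, adjusted p = 0.00193). CDH2, the neural cadherin, read 5173, 7151, 5718 and 6761 in SUM159 and 17.3, 4.65, 14.6 and 5.38 in MDAMB231 (difference 9.25 ± 0.41 (SE, adjusted p = 5.09e-05)). TWIST1 read 122 to 247 in SUM159 and was listed at 0 in all MDAMB231 libraries, and TWIST2 read 403 to 632 against 0 to 0.667. SNAI1 was higher in SUM159 (112 to 349.9 against 8.67 to 19.6), and SNAI2 was 4.23-fold lower (485 to 627 against 2189 to 2497). CDH11, the mesenchymal cadherin of bone-forming cells, was on the other side with 1.17, 0, 0 and 0.945 in SUM159 and 804, 1381, 767 and 1619.8 in MDAMB231. MYL9 and TAGLN, genes of contractile cells, were lower in SUM159, MYL9 with 53.9 to 237 against 3079 to 4383. CD44, the hyaluronan receptor, did not pass (13425 to 14947 against 11487 to 13683).

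Epithelial adhesion genes and keratins leaned to MDAMB231. Of 28 tested, 9 were higher in SUM159 and 15 lower, 6 and 13 past 4-fold, with a median of -1.19. All tested genes had 31.7% higher, 28.4% lower and 17.0% past 4-fold. Desmosomal DSC2 read 0, 1.06, 0 and 0 in SUM159 and 997, 518, 1132 and 469 in MDAMB231, and the surface antigen EPCAM read 84 to 375 in MDAMB231 against 0.945 to 7.87 in SUM159. ESRP2, a splicing factor of epithelial cells, read 2.86 to 7.52 against 140.0 to 456, and DSP, the desmoplakin gene, was 15.6-fold lower in SUM159. These levels in MDAMB231 were still well under HCC1806, which read 11492 to 15287 for EPCAM and 53425 to 66370.3 for DSP. KRT81, a hair keratin found in basal breast lines, read 60.7, 26.8, 42.7 and 84.3 in SUM159 and 5618, 14409, 5394 and 13895 in MDAMB231 (difference -7.46 ± 0.41 (SE, adjusted p = 9.1e-05)).

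The 9 genes that were higher in SUM159 were the keratins KRT5, KRT6A, KRT7, KRT17, KRT23 and KRT80 and the junction genes JUP, PKP3 and TJP3. KRT6A, KRT17 and KRT5, keratins of basal and activated epithelium, were low but higher in SUM159, with 74.1 to 204, 46.7 to 88 and 17.6 to 97.3 against 0 to 3.31, 0.667 to 3.77 and 0 to 16. KRT23 read 13.8 to 125 against 0 to 0.667, and TJP3, of tight junctions, 19.1 to 90.1 against 0.754 to 3.65. JUP, the plakoglobin gene shared by both junction types, read 5053, 7883, 5534 and 8318 in SUM159 and 218, 1174, 254 and 1368 in MDAMB231 (difference 3.58 ± 0.39 (SE, adjusted p = 0.000807)), and its MDAMB231 values were higher with JQ1 (line-by-JQ1 term -1.81 ± 0.10 (SE), adjusted p = 0.00391). KRT7 was 2.82-fold higher in SUM159, and KRT8 and KRT18, the simple epithelial pair, 2.53-fold and 2.06-fold lower. CDH1 did not pass (adjusted p = 0.366). Of 13 basal and myoepithelial genes 7 were higher in SUM159 and 5 lower, beside 31.7% and 28.4% of all tested genes. Of 13 steroid receptor and luminal genes 6 were higher and 6 lower, a split that became 5 and 7 with TMM scaling. Among them MUC1, a mucin of luminal surfaces, read 801, 405, 1075 and 236 in SUM159 and 15.8, 133, 16.2 and 91.8 in MDAMB231, and AGR2, a secretory disulfide isomerase, 15.2, 0, 0 and 0.945 in SUM159 and 82.1, 944, 99 and 245 in MDAMB231.

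Receptor tyrosine kinases were tested for 34 genes, 13 higher in SUM159 and 16 lower, beside 31.7% and 28.4% of all tested genes. PDGFRA, a receptor of fibroblasts, read 6604, 412, 4788 and 165 in SUM159 and 1.51, 0, 0.812 and 0 in MDAMB231 (difference 9.70 ± 0.76 (SE, adjusted p = 0.000252)), and PDGFRB 1385, 294, 1637 and 307 in SUM159 and 34.7, 43.8, 24.4 and 39.3 in MDAMB231. Both were lower in SUM159 with JQ1, and their line-by-JQ1 terms were -3.33 ± 0.52 and -2.82 ± 0.31 (SE, adjusted p = 0.0112 and 0.00689), of which that of PDGFRA was lost without the DMSO pair or the GSK2801 pair. DDR1, a collagen receptor, was 5.55-fold higher in SUM159. On the MDAMB231 side, EGFR was 5.06-fold and AXL 3.7-fold lower in SUM159, EGFR with 6379, 5298, 6225 and 4143 in SUM159 and 19349, 32867, 23232 and 38831 in MDAMB231 and AXL with 14989.7, 11985, 16430.2 and 8653 in SUM159 and 39761, 51565, 44433 and 52749 in MDAMB231. MERTK, the relative of AXL, read 4.25 to 11.7 against 499.5 to 693, and MST1R, the RON receptor, 0.945 to 10.3 against 111 to 226. MET and FGFR1 were less than 2-fold apart, and EPHA3, EPHB3, DDR2, FGFR3 and ERBB4 did not pass.

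Secreted signals leaned to MDAMB231. Of 50 tested, 13 were higher in SUM159 and 25 lower, 7 and 18 past 4-fold, with a median of -1.38. The same shares over all tested genes were 31.7%, 28.4% and, past 4-fold in either direction, 17.0%. EGFR ligands AREG and EREG were among the lower, AREG with 85.5, 222, 56.9 and 308 in SUM159 and 6841, 5478, 8905 and 3806 in MDAMB231 (difference -5.45 ± 0.61 (SE, adjusted p = 0.00086)) and EREG with 1819, 2199, 2224 and 3033 in SUM159 and 12418, 4954, 14296 and 3436 in MDAMB231. TGFA and HBEGF were 2.52-fold and 2.55-fold lower. Activin chain INHBA and its antagonist FST were near 0 in SUM159 (0 to 0.945 and 0 to 1.17) and read 429 to 619 and 161 to 1066 in MDAMB231. DKK1, a WNT antagonist, was 26.3-fold lower in SUM159 (639 to 1222 against 16480.2 to 39380.2), BMP4 32.5-fold, and TGFB2 read 1469, 388, 1096 and 303 in SUM159 and 8733, 6148, 6795 and 5935 in MDAMB231. Of the higher genes, FGF2 read 1649.9, 2109.7, 1571 and 1454 in SUM159 and 3.63, 3.95, 8.78 and 3.83 in MDAMB231 (difference 8.19 ± 0.27 (SE, adjusted p = 2.76e-05)), and DKK3, a relative of DKK1, 3748 to 6973 against 13.3 to 27.6. PDGFA was 6.01-fold and TGFB1 2.75-fold higher, so that PDGFA and its receptor gene PDGFRA were both on the SUM159 side, and AREG and EGFR both on the other.

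Genes that report ERK activity were tested for 23 members. Of these 2 were higher in SUM159 and 9 lower, 1 and 5 past 4-fold, with a median of -0.31. Over all tested genes 31.7% were higher, 28.4% lower and 17.0% past 4-fold. DUSP6, a phosphatase of ERK, read 1339.8, 1627, 1461 and 1728 in SUM159 and 4394, 20309, 4409 and 20963 in MDAMB231 (difference -2.64 ± 0.42 (SE, adjusted p = 0.00334)), FOSL1 952, 837, 804 and 992 in SUM159 and 7759, 5757, 7882 and 4479 in MDAMB231, and PHLDA1 was 6.04-fold lower. DUSP4 and SPRY1 were lower as well. EGR1 was 2.8-fold higher in SUM159 (1211 to 1748 against 369 to 769.6). ETV4, ETV5, SPRY2, SPRY4, SPRED1 and SPRED2 did not pass, and ETV5 differed by 0.07 ± 0.08 (SE). Of the RAS pathway genes themselves, BRAF was 1.36-fold higher in SUM159, and NRAS 2.27-fold and HRAS 1.29-fold lower. NF2, the merlin tumour suppressor upstream of YAP, read 3107, 3515, 3119.7 and 3525 in SUM159 and 479, 280.3, 408 and 266 in MDAMB231 and was 9.51-fold higher in SUM159 (difference 3.25 ± 0.20 (SE, adjusted p = 0.00013)). PIK3CA was 1.18-fold lower in SUM159.

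Cancer-testis antigens were mostly higher in SUM159. These genes are normally silent outside the germ line. Of 45 in the files 26 were tested, 21 higher in SUM159 and 4 lower, 20 and 2 past 4-fold, with a median of 5.87. All tested genes had 31.7% higher, 28.4% lower and 17.0% past 4-fold. The antigen genes higher and lower became 20 and 3 under quantile normalization. GAGE1 read 604, 532, 595 and 575 in SUM159 and was listed at 0 in all MDAMB231 libraries, and GAGE2A 637 to 775 against 0 to 0.913. MAGEA12 read 1647, 1355, 1570.1 and 1493 in SUM159 and 3.02, 0.913, 1.63 and 2 in MDAMB231 (difference 9.08 ± 0.22 (SE, adjusted p = 2.06e-05)). CTAG2 read 337 to 587 against 0 to 2.44, and PAGE5 293 to 364 against 0 to 1.33. SPANXB1 and CT83 ran the other way, SPANXB1 with 185 to 227 against 2344 to 4919.8 and CT83 with 0 to 0.875 against 21.3 to 109. Many members of the MAGEA and GAGE families are near copies of each other, so how reads were split among them is uncertain. MAGEA6, for one, was 2.67-fold apart, with 2429 to 2919 against 952 to 1042.

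Of 26 antigen presentation genes 13 were higher in SUM159 and 6 lower, beside 31.7% and 28.4% of all tested genes. Among the HLA genes that passed, class I was higher and class II lower. HLA-C and HLA-E, class I heavy chains, were higher in SUM159 by 0.78 and 0.80 (log2 difference). CD74, the class II invariant chain, read 1.17, 0, 0.875 and 0.945 in SUM159 and 295, 768, 311 and 749 in MDAMB231 (difference -8.16 ± 0.48 (SE, adjusted p = 0.000109)), and HLA-DMA, HLA-DMB and HLA-DRB1, genes of class II loading and presentation, were lower in SUM159 as well. The other lower genes were MICB and TAP2, and HLA-B of class I and HLA-DPA1 of class II did not pass. Reads of HLA genes depend on how a line's alleles match the reference, and that was not tested. Of 41 interferon response genes 14 were higher and 14 lower: HERC5 read 1.89 to 18.8 against 558 to 809, and IFI44L 784, 29.7, 479 and 10.4 in SUM159 and 9.04, 0.913, 8.93 and 0 in MDAMB231. Of 37 cytokine and receptor genes 13 were higher and 13 lower. Both counts are near the shares over all tested genes, 31.7% higher and 28.4% lower. Past 4-fold were 24.4% of the interferon genes and 40.5% of the cytokine and receptor genes, against 17.0% of all tested genes. IL1RL1, the IL-33 receptor, read 616, 12.7, 719 and 27.4 in SUM159 and 5.27, 4.56, 4.87 and 7.34 in MDAMB231, IL11 10.5, 4.25, 9.62 and 14.2 in SUM159 and 740.0, 121, 642 and 78 in MDAMB231 and LIF 17 to 69.1 against 171 to 1044.

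Long noncoding RNAs were tested for 29 genes, 18 higher in SUM159 and 6 lower, beside 31.7% and 28.4% of all tested genes. H19, an imprinted RNA next to IGF2, read 10191, 936, 6843 and 1931 in SUM159 and 1.51, 5.61, 4.87 and 11.1 in MDAMB231 (difference 9.16 ± 0.87 (SE, adjusted p = 0.000498)). PVT1 and CASC8, neighbours of MYC like CCAT1, were 12-fold and 4.55-fold higher in SUM159, and CASC8 is annotated as antisense, so its reads are uncertain. LINC00261, next to FOXA2 on chromosome 20, read 14.1, 8.5, 7 and 1.89 in SUM159 and 1589, 1540.2, 1232 and 1554 in MDAMB231, on the same side as FOXA2. UCA1 read 21.8, 251, 4.37 and 411 in SUM159 and 871, 4125, 1243 and 3432 in MDAMB231 and was higher with JQ1 in both lines.

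Of 25 redox and carbonyl enzymes 11 were higher in SUM159 and 10 lower, beside 31.7% and 28.4% of all tested genes. AKR1C1 and AKR1C3 followed AKR1C2, with 412 to 1927 and 415 to 649 in SUM159 against 3.92 to 18.7 and 8.87 to 45.9. HMOX1, heme oxygenase, read 2486, 8172, 4897 and 14899.8 in SUM159 and 318, 329.6, 404 and 371 in MDAMB231 (difference 4.13 ± 0.39 (SE, adjusted p = 0.000498)), and GSTP1 was 4.6-fold higher. GSTM3 and GPX3 were on the MDAMB231 side, GSTM3 with 0 to 16.1 against 943 to 2927. Of 31 neural genes 10 were higher and 11 lower, near the same shares of all tested genes, but 48.4% were past 4-fold, against 17.0%. NCAM1 read 454, 922, 512 and 852 in SUM159 and was listed at 0 in MDAMB231, and NRCAM was 22.4-fold higher, while L1CAM, NLGN1 (0 to 1.17 against 411 to 429) and ROBO2 (0 to 3.52 against 127 to 201) were lower.

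Lists of housekeeping or drug-target genes differed little. Shares over all tested genes to set beside these lists are 31.7% higher, 28.4% lower and 17.0% past 4-fold. None of 18 bromodomain genes and partners was past 4-fold, and 6 were higher and 2 lower. BAZ2A and BAZ2B, the targets of GSK2801, did not pass, with differences of -0.20 ± 0.15 and 0.24 ± 0.12 (SE), while BRD2 and BRD3 were 1.36-fold and 1.38-fold higher in SUM159. Of 54 ribosomal protein genes 22 were higher and 3 lower, none past 4-fold, and 18 and 4 under TMM scaling. Of 30 mitosis genes 1 passed, UBE2C, lower in SUM159 with 1447, 1220.2, 1228 and 985 in SUM159 and 4934, 2335, 4935 and 895 in MDAMB231, where the combination pair alone ran the other way. Without the libraries that received JQ1, 21 mitosis genes were lower and 2 higher, with a median of -0.58. In that fit many more genes passed: of all 13692, 4953 were lower and 5655 higher, with a median of 0.07. The line-by-JQ1 term passed above 0 for 25 of the 30, beside 12.7% of all tested genes, and CDC20 read 4739, 5016, 4189.6 and 4805 in SUM159 and 9692, 4252, 10442 and 2560.3 in MDAMB231, lowest in MDAMB231 with the combination.

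**Figure D3:**
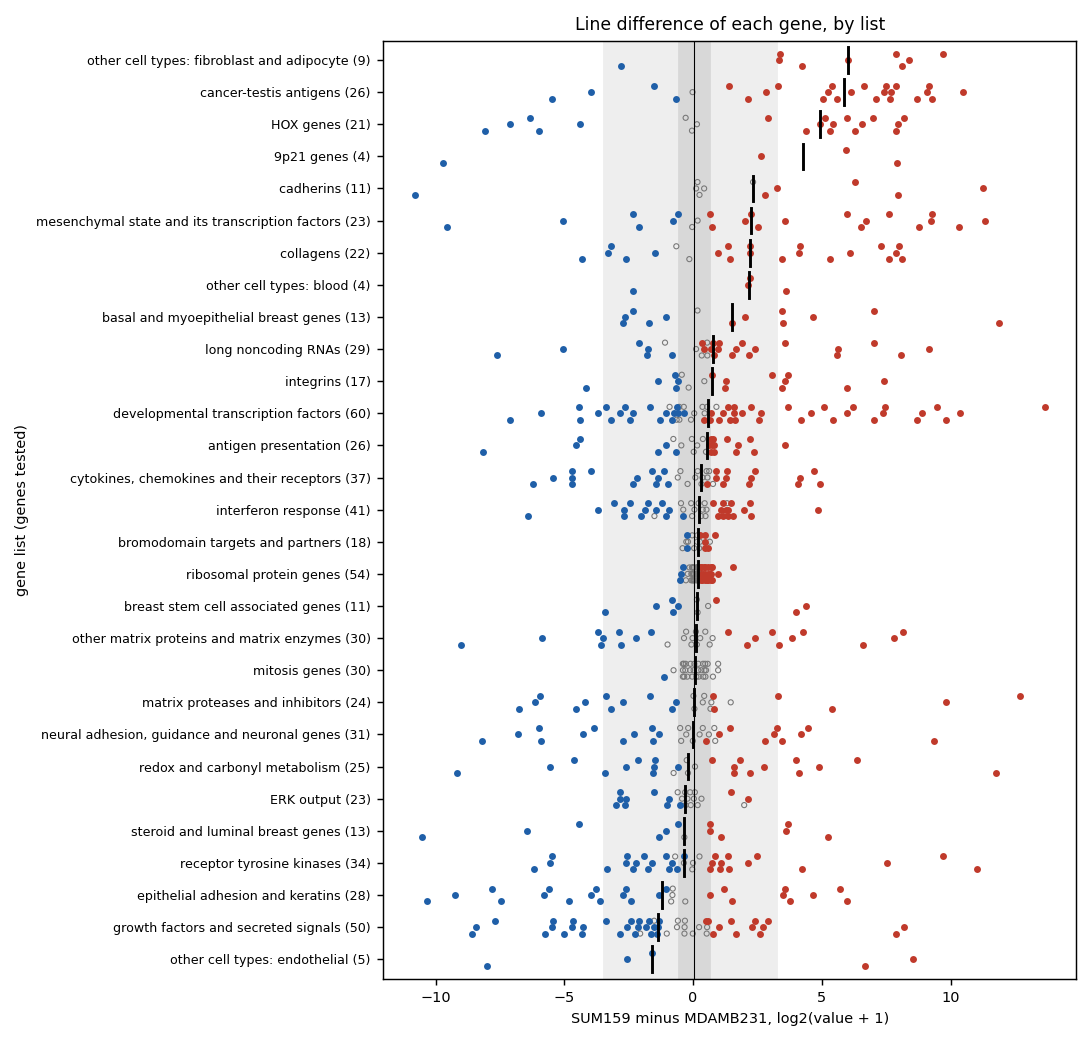
Difference between SUM159 and MDAMB231 on the log2(value + 1) scale for each tested gene of 29 lists, with filled red or blue points for genes higher or lower in SUM159 at adjusted p below 0.05, open points for the rest and a black bar at each list's median. The grey bands hold the middle 50% and 90% of all 13692 tested genes, from -0.54 to 0.67 and from -3.47 to 3.26. HOX genes and cancer-testis antigens reach far to the right, and mitosis and ribosomal protein genes stay inside the bands.

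Marker genes of other cell types were measured in the same way. The fibroblast and adipocyte list summed to 12404 to 59831 in SUM159 and 130.1 to 209.5 in MDAMB231. In SUM159 8 of its 9 tested genes were higher, beside 31.7% of all tested genes. Its defining genes were mixed in SUM159: COL1A1, COL3A1 and PDGFRA were high, DCN read 12.7 to 227, LUM 0 to 9.38, COL1A2 was near 0 and LEP was listed at 0. In MDAMB231 FAP, ADIPOQ and LEP were listed at 0. FABP4, a fatty acid carrier of adipocytes, read 177, 203, 982 and 1509.9 in SUM159 and 0, 0, 1.62 and 0.667 in MDAMB231, higher in SUM159 with GSK2801. The blood list summed to 662 to 1488 in SUM159 and 3158 to 8800 in MDAMB231, most of it CD68, a lysosomal protein of macrophages, with 599.8 to 1349 against 3128 to 8767. In that list CD3D, MS4A1, HBB and TYROBP were listed at 0 in all 8 libraries. PTPRC, the leukocyte antigen CD45, read 422, 4.25, 60.4 and 2.83 in SUM159 and 0.754, 0.913, 3.25 and 0.667 in MDAMB231, and CD14 and HBA1, which has a near-identical copy, were higher in SUM159 as well. The endothelial list summed to 663 to 1653 in SUM159 and 2366 to 3810 in MDAMB231. In it ERG read 552, 316, 417 and 268 in SUM159 and was listed at 0 in MDAMB231, PECAM1 227 to 1145 against 2.26 to 5.48, and ESAM 3.5 to 36.9 against 2024 to 3415. In these cultured lines, few cells with much of an RNA and many cells with little of it cannot be told apart in bulk libraries.

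The differences were not spread evenly over the genome, a description made after the values were seen. On chromosome 19, the tested genes named ZNF and a number, most of which code for zinc finger repressors, numbered 213. Of these 111 were lower in SUM159 and 16 higher, 62 and 4 past 4-fold, with a median of -0.52. Among 210 such genes on other chromosomes 54 were lower and 70 higher, with a median of 0.17, and among the 730 other tested genes of chromosome 19 213 were lower and 188 higher, with a median of -0.04. The low genes lay in runs. A run is a stretch of at least 8 neighbouring tested genes that all passed in 1 direction. That the genes of a run agree follows from this rule. From 11797667 to 12513854 ran 19 genes from ZNF491 to ZNF709, lower in SUM159, 17 of them past 4-fold, with a median of -5.07. From 52336245 to 53356906, 19 more genes from ZNF610 to ZNF845 were lower, with a median of -2.35. From 19710471 to 20950697, 12 genes from ZNF14 to ZNF85 were lower, with a median of -5.93. ZNF625 read 0, 0, 0 and 0.945 in SUM159 and 84.1, 107, 71.8 and 57.4 in MDAMB231, ZNF709 0, 1.06, 0 and 0 in SUM159 and 52.8, 110.5, 127 and 68.6 in MDAMB231 and ZNF443 12, 17.2, 16.4 and 9.03 in SUM159 and 130.4, 189.9, 117 and 171 in MDAMB231. In ZNF443, which kept some expression in SUM159, the difference was -3.40 ± 0.28 (SE, adjusted p = 0.000294).

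The stretches before 2 genes at the end of the first run are shown because these neighbours moved together to different degrees. They are the 250 bases before the RefSeq start (GRCh38.p14), of ZNF443 at chr19:12441022-12441271 and of ZNF709 at chr19:12484817-12485066, both on the minus strand, with CG in capitals.
ZNF443: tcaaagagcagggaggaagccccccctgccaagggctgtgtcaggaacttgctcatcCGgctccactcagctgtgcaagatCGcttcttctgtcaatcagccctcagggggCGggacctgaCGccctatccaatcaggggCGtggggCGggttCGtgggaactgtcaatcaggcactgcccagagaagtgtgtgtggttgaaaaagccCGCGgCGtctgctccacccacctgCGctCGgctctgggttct
ZNF709: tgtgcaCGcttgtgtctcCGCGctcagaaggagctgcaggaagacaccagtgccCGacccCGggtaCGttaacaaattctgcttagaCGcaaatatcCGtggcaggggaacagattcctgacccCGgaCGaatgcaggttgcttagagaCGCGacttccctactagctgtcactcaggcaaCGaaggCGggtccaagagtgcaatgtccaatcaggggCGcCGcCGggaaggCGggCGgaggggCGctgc
They hold 12 and 20 CG. Over the chromosome 19 ZNF genes with such a stretch, the median number of CG was 12 for those at least 4-fold lower in SUM159 (55 of 62 genes) and 17 for those that did not pass (77 of 86). Over all tested genes it was 21. The 2 groups were chosen by their values, so this is a description with no test.

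**Figure D4:**
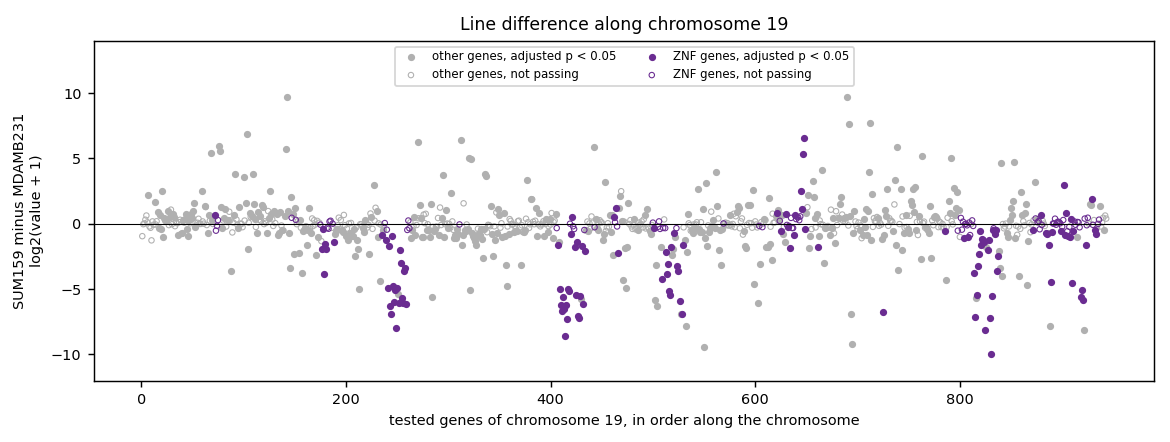
Difference between SUM159 and MDAMB231, on the log2(value + 1) scale, of the tested genes of chromosome 19 in their order along the chromosome, with ZNF genes in purple, other genes in grey and open circles for genes that did not pass. Several groups of neighbouring ZNF genes lie well below 0, separated by stretches of genes around 0, while other ZNF genes lie near or above it.

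Runs were found on many other chromosomes too, and the longest of these had small medians. On chromosome 6, from 108559835 to 110895713, 17 genes from FOXO3 to AMD1 were higher in SUM159, with a median of 0.92. On chromosome 7, from 102748971 to 105600875, 16 genes from FAM185A to EFCAB10 were higher, with a median of 1.36. The runs that follow were picked because they hold known loci, and their medians are larger. From 53708517 to 54280133 on chromosome 12, 15 neighbouring genes with a position, from CALCOCO1 to CBX5 around the HOXC cluster, were higher in SUM159, with a median of 4.91. HOXC5, which had no single position and did not pass, is not among them. From 151953124 to 152769747 on the X chromosome, 10 genes from GABRE to MAGEA6 were higher, with a median of 4.45. On chromosome 15, from 22867052 to 25419462, 8 genes from CYFIP1 to PWAR6 were higher, with a median of 6.38, in a stretch that holds the imprinted locus of the Prader-Willi syndrome. There SNRPN read 1489, 1387, 1669 and 1884 in SUM159 and 0, 0, 0 and 0.667 in MDAMB231, and SNHG14, the long RNA that continues from it, 1033, 911, 1224 and 1169 in SUM159 and 6.78, 1.83, 5.68 and 3.33 in MDAMB231. SNURF, PWAR5 and PWAR6 of the same transcript were higher too. UBE3A, the neighbour expressed from the other parental copy in neurons, did not pass (3588 to 3825 against 3235 to 4694, adjusted p = 0.617), and ATP10A beyond it read 0, 0, 0 and 0.945 in SUM159 and 441, 1104, 392 and 601 in MDAMB231. On 9p21, a region often lost in tumours, MTAP was near 0 in both lines (0 to 1.06 and 0 to 0.913, against 1234 to 1459 in HCC1806). KLHL9 nearby read 370.3, 399, 332 and 299 in SUM159 and 0, 0, 1.62 and 0.667 in MDAMB231, and MLLT3 was high in MDAMB231 alone of the 2.

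Whole chromosomes leaned by smaller amounts. On chromosome 16 the median difference over 593 tested genes was 0.60, with 57.3% higher in SUM159 and 8.77% lower. On chromosome 21 it was 0.54 over 130 genes, and on chromosome 22 it was 0.41 over 308. On chromosome 14 it was -0.37 over 449 genes, with 16.3% higher and 45.0% lower, and on chromosome 20 it was -0.29 over 352. The copy number of these chromosomes was not measured here.

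JQ1 changed the size of many line differences. The term asks whether the difference with JQ1, averaged over the libraries with and without GSK2801, departs from the difference without it. It passed for 4418 genes (32.3% of those tested), above 0 for 1740 (12.7%) and below 0 for 2678 (19.6%). A term below 0 says that JQ1 took SUM159 down relative to MDAMB231. Because the dose was higher in SUM159, line and dose cannot be told apart in this term. The median term over all tested genes was -0.10, and under quantile normalization it was 0.04 and the split turned to 2489 above 0 and 2200 below. Of the 1139 genes at least 4-fold higher in SUM159, the term was below 0 for 300 (26.3%) and above 0 for 61 (5.36%). Of the 1187 at least 4-fold lower, it was below 0 for 244 (20.6%) and above 0 for 77 (6.49%).

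COL3A1 was among the genes whose difference shrank, with a term of -5.19 ± 0.41 (SE, adjusted p = 0.00478). CCAT1 and L1CAM did not pass (terms -2.07 ± 0.66 and 1.41 ± 0.67, adjusted p = 0.0623 and 0.157). The largest terms belonged to genes of low or moderate level. SULT1B1, a sulfotransferase, read 521, 3.19, 542 and 1.89 in SUM159 and 4.52, 2.74, 2.44 and 1.33 in MDAMB231 (term -6.70 ± 0.54, adjusted p = 0.00478). CD36, the fatty acid receptor, read 252, 9.56, 1089 and 16.1 in SUM159 and 1.51, 4.56, 3.25 and 6 in MDAMB231 (term -6.23 ± 0.60, adjusted p = 0.00581). RXFP1, the relaxin receptor, read 169.9, 2.12, 165 and 0.945 in SUM159 and was listed at 0 in MDAMB231, and LGALS12, a galectin of fat cells, read 60.9, 0, 123 and 2.83 and was listed at 0 there too. These genes were high in SUM159 without JQ1 and near 0 with it, where the lines lay close together. RIMS2, a synaptic protein, was the converse, with 16.4, 7.43, 7.26 and 11.3 in SUM159 and 1229.8, 27.4, 729.9 and 9.34 in MDAMB231. AMIGO3 (0, 42.8, 0 and 72.3 in SUM159 and 7.49, 0, 0 and 0 in MDAMB231), RIMBP3B (11.2, 14.1, 17 and 0 in SUM159 and 0, 19, 0 and 28.5 in MDAMB231) and URGCP-MRPS24 (0, 0.00627, 37.6 and 0 in SUM159 and 0, 28.3, 19.8 and 46 in MDAMB231) were low throughout. RIMBP3B has near-identical copies and URGCP-MRPS24 is a read-through transcript, so their reads are uncertain. The terms of LGALS12 and RIMBP3B were lost without the DMSO pair or the GSK2801 pair, and that of URGCP-MRPS24 without the GSK2801 pair.

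Leaving out 1 treatment pair moved this count far. Without the DMSO pair 937 genes passed, and without the GSK2801 pair 628, against 5271 and 3736 without the JQ1 pair and without the combination pair.

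**Figure D5:**
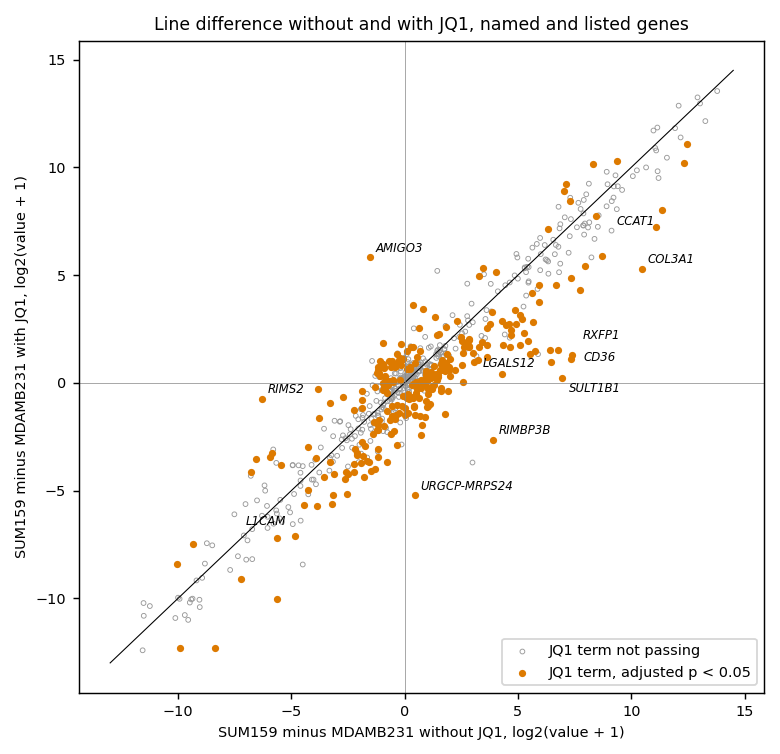
Difference between SUM159 and MDAMB231 without JQ1 (mean of the DMSO and GSK2801 pairs, horizontal) and with it (mean of the JQ1 and combination pairs, vertical), on the log2(value + 1) scale, for 721 named or listed genes, with orange points where the line-by-JQ1 term passed. Points on the diagonal kept their difference, and COL3A1, SULT1B1, CD36 and RXFP1 lie below it on the right.

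For GSK2801, given at the same dose to both lines, no change of the line difference passed the threshold. The line-by-GSK2801 term passed for 0 of 13692 genes (0.0%, limma), 71 had an unadjusted p below 0.05, and no other setting tried gave a call. The smallest p belonged to GDA, a guanine deaminase (3593, 2483, 2748 and 3601 in SUM159 and 0, 0, 5.68 and 9.34 in MDAMB231), C5orf38 and ANPEP below 0, and to RIMBP3C, MAGEA2 and FAM213A above 0. For GDA, C5orf38 and ANPEP the term rests on MDAMB231 values of at most 15.4, and the traces described above were highest in the MDAMB231 library with GSK2801. GDA, C5orf38 and ANPEP are themselves among the 32 genes summed for those traces. Setting their values against the traces therefore decides nothing, and the source of these values was not tested. FAM213A read 10.5, 4.25, 52.5 and 51 in SUM159 and 1779.9, 1952, 1529 and 1591 in MDAMB231, higher in SUM159 with GSK2801. The fit held no line-by-JQ1 term, so changes of the line difference with JQ1, called for 4418 genes, stayed in its error. With that error and 2 residual degrees of freedom the fit can miss changes of moderate or larger size. The lack of calls therefore does not show that GSK2801 left the line differences unchanged.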

How the data were processed

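Per the labels' protocols, polyadenylated RNA was extracted with RNeasy Plus and sequenced. The labels name both the KAPA Stranded mRNAseq kit and the Illumina TruSeq RNA library kit v2, so whether strand was kept is unknown. The submitters' processing notes name STAR 2.4, Salmon 0.60 and hg38, with no further steps given in the sources used here. The authors deposited 1 signal value per gene and library, normalized reads scaled to a common upper quartile. Between 67.1% and 69.1% of values were whole multiples of the value of 1 read (tolerance 0.02), so no count model was used. Symbols turned into dates (27 of 28539 entries, 0.197% to 0.218% of a library's sum) were left out.

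Values were analysed as log2(value + 1) in limma 3.58.1 (R 4.3.3) with a variance trend, the 4 treatments as a block and the line as the term tested, for genes with a mean of 10 or more over 8 libraries. Line-by-JQ1 and line-by-GSK2801 terms were fitted in the same way, each in a fit without the other. Adjusted p-values are Benjamini-Hochberg over 13692 genes with a threshold of 0.05. The scripts were tested on simulated data. Libraries with the same treatment come from cells given the same drug. Their deviations from the mean of their line correlated across genes for every pair. The r was 0.445, 0.303, 0.320 and 0.437 for DMSO, JQ1, GSK2801 and the combination. Unmatched pairs alike in having or lacking JQ1 were close to this, with r of 0.398, 0.311, 0.305 and 0.282. Pairs unlike in JQ1 had a negative r. The correlation therefore does not single out the matched treatments. The 3 line marks, the 15 largest differences in each direction with the same sign in 4 of 4 pairs and a mean of at least 100 in the higher line, and the 8 largest line-by-JQ1 terms were named by rule, and the other genes come from 30 gene lists. Comparison, rule and lists were chosen with earlier results of these data known. Gene positions are those of GENCODE v29 and sequences those of RefSeq GRCh38.p14. COL3A1 and C5orf38 had no sequence in the table used here. A few list members count in the totals and are not reported here by name. The alternatives tried were other pseudocounts, filters, scalings, weights, a fit without the block, a fit with HCC1806 and leaving out pairs. One more, leaving out all JQ1 libraries, was chosen after seeing the data.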

Additional observations from a re-analysis of the deposited data

Results flagged for a closer look

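In 480 groups of 4 libraries, 38 held 1 library far from the other 3, by a gap over range above Dixon's critical value for 4 values, on the log2(value + 1) scale, and chance alone marks about 1 group in 20.

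Most of these were 3 libraries at or near 0 beside 1 with a trace. The ratio was 1.0 in MDAMB231 for FEZ1, KRT23, MAGEA2B, SNRPN and TWIST2 with the combination, ZNF469, FOXD1 and HOTAIRM1 with GSK2801, COL1A2 and GAGE2A with JQ1, and AMIGO3 with DMSO. It was 1.0 in SUM159 for MLPH, MLLT3, ADIPOQ and FST with DMSO, DSC2, MTAP and ZNF709 with JQ1, CT83 and TBX1 with GSK2801, and ZNF347, ATP10A, TIMP4 and ZNF625 with the combination. Further low genes were URGCP-MRPS24 in SUM159 with GSK2801 (0.998), RIMBP3B in SUM159 with the combination (0.867), KRT5 in SUM159 with the combination (0.892), and FGF2 and PTPRC in MDAMB231 with GSK2801 (0.912 and 0.853).

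Genes of higher level were also marked. DDR1, the collagen receptor, stood apart in MDAMB231 with JQ1 (0.993, values 239.6, 371, 240.3 and 240.1), and G0S2 in MDAMB231 with the combination (0.865). SPRY2 and TIMP1 stood apart in MDAMB231 with the combination (0.856 and 0.868), LINC00261 and NLGN1 there with GSK2801 (0.879 and 0.965). In SUM159, COL5A1 stood apart with the combination (0.889), NRCAM with DMSO (0.875) and PHLDA1 with JQ1 (0.921).

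The size of the line difference changed with JQ1, at doses that differed between the lines, for the genes with the largest line-by-JQ1 terms and for others named above. The terms above 0 were those of AMIGO3 (7.37) and RIMS2 (5.56). The terms below 0 were -6.70 for SULT1B1, -6.54 for RIMBP3B, -6.23 for CD36, -6.10 for RXFP1, -5.65 for URGCP-MRPS24, -5.49 for LGALS12, -5.19 for COL3A1, -3.33 for PDGFRA, -2.82 for PDGFRB, -1.82 for CTGF and -1.81 for JUP.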

How the results depend on the processing

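The count of 8231 genes that differed between the lines became 6681 without the replicate block, 3916 against a threshold of 1.5-fold and 6700 to 7930 when 1 treatment pair was left out. The count of 2326 past 4-fold became 1270 with a mean of at least 100 and 2244 to 2336 without a pair. The count of 4418 line-by-JQ1 terms became 1844 with no variance trend, 446 against 1.5-fold and 628 to 5271 without a pair, with 937 without the DMSO pair and 628 without the GSK2801 pair. Of its calls 39.4% lay above 0, and 47.2% and 53.1% did under TMM and quantile scaling. The line-by-GSK2801 count was 0 under every alternative run, with 37 to 493 genes at an unadjusted p below 0.05. None of these fits held a line-by-JQ1 term.

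Over 247 named genes and 16 alternatives, 3773 of 3898 values of the line difference kept their direction and their side of the threshold, 100 lost the call, 23 gained it and 2 turned. COL12A1 and ERBB4 turned to 0.36 and 2.99 without the JQ1 libraries, where 13 other genes gained a call, MYC and UBE3A among them. Of 205 values of the line-by-JQ1 term for 15 genes 189 were the same. CCAT1 gained the call with pseudocount 10 and without the combination pair, and L1CAM without the GSK2801 pair. The cause was not tested. Low values limit what can be seen, since a line listed at 0 gives no ratio, and with 1 library per line and treatment no spread between cultures was measured.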
